A study of Mus musculus with 10 samples.

Results

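The endoplasmic reticulum (ER) stress sensors and chaperones are 10 genes of the unfolded protein response: the sensors Atf6, Ern1 and Ern2, the transcription factor Xbp1, and the folding and degradation genes Hspa5, Hsp90b1, Pdia4, Sdf2l1, Dnajb9 and Herpud1. They were chosen by name, and each was read from a probe set that the platform annotation gives to exactly 1 gene symbol. By this rule 9 of the 10 were measured, among 22180 genes in all. The probe set of Pdia4, a protein disulfide isomerase, is annotated to a microRNA gene as well, so Pdia4 has no value here. Each of the other 9 had 1 such probe set.

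The samples were 10 arrays of jejunum, the middle part of the small intestine, from female mice of 10 to 12 weeks. All mice carried Pcyt1a alleles flanked by loxP sites (Pcyt1aLoxP/LoxP). The 5 knockout samples, labelled Fed Knockout, also carried VilCreERT2, a Cre recombinase that tamoxifen switches on and that the villin promoter drives in the intestinal epithelium. The 5 samples labelled Fed Control had no Cre, and both groups received tamoxifen for 5 days. Every mouse ate a high-fat diet over 3 days, went without food overnight and was given that diet again for 2 hours. Since Cre was present in 1 group alone, active Cre and loss of Pcyt1a cannot be told apart. The labels do not say that each array is a separate animal, so every p-value here rests on the scatter among the 5 samples of a group, part of which may be technical.

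The targeted gene matched the labels. Pcyt1a, which encodes the enzyme of the regulated step of phosphatidylcholine synthesis, had a log2 intensity of 7.51 ± 0.16 (SD, n = 5) in the knockout arrays. The control arrays were at 9.22 ± 0.20 (SD, n = 5), with no overlap (limma adjusted p = 6.51e-05). All 10 enterocyte markers were measured, with means over the arrays of 11.2 to 13.8 on the log2 scale. Of 8 pancreatic acinar markers, 5 were measured, at means of 4.25 to 6.12. Some marker lists differed between arrays. Paneth markers (7 of 9 measured) had a mean, relative to all 10 arrays, of -2.62 in control 5 and -1.22 in knockout 1, against -0.32 to 0.92 in the others. Genes of the distal small intestine (6 of 7 measured) stood at -1.09 in knockout 1. Their mean was 0.71 to 1.38 in knockouts 2 to 5, and controls had -0.82 to -0.09. These genes did not all move together, and 0 of the 6 passed (limma). At an unadjusted p under 0.05 there were 5, 4 with higher and 1 with lower values in knockout, against 12.1% of all genes. Values were higher in knockout for 5 of the 6, most of all Fabp6 (log2 difference 3.89, SE 0.97). The other, Cubn, had lower values (-0.84, SE 0.19), without overlap of the groups. Goblet cell markers (9 of 9 measured) covered -0.27 to 0.07 among knockouts, and controls covered -0.21 to 0.29.

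The unfolded protein response matches the folding capacity of the ER to its load of new proteins. Its sensors span the ER membrane: ATF6 is cut in the Golgi to free a transcription factor, IRE1 splices the Xbp1 transcript in the cytosol, and PERK slows translation. They can also respond to changes in the lipids of the membrane itself, and XBP1 and ATF6 in turn raise genes of chaperones, of degradation and of phospholipid synthesis. In the gut, IRE1 exists in 2 forms, a widespread alpha form encoded by Ern1 and a beta form encoded by Ern2 that is found mainly in mucus-secreting cells. The arrays measured total transcript. Splicing of Xbp1, cleavage of ATF6 and phosphorylation of IRE1 were not measured here.

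The chaperone genes are known for ER stress elements in their promoters, and the promoters that hold one are shown because their genes are set side by side in the results that follow. The 300 bases from 250 before to 50 after the start site were searched on both strands, in RefSeq's table of promoters (GRCm38.p6), for the ER stress response element (ERSE: CCAAT, 9 bases of any kind, then CCACG), for ERSE-II (ATTGG, 1 base of any kind, then CCACG) and for a form of the unfolded protein response element, TGACGTGG. Of the members, 8 were in that table, and Ern2 and Atf6 were not. ERSE was found in Hspa5 and Hsp90b1, and in 0.119% of 32851 promoters. ERSE-II was found in Herpud1, and in 0.0365% of promoters. The third element was in 0 of the 8 members and in 0.676% of promoters. None of the matches overlapped another. The 250 bases before the start site follow, 5′ to 3′ on the gene's strand, with the matched letters in capitals.
Hspa5, chr2:34771840-34772089, plus strand: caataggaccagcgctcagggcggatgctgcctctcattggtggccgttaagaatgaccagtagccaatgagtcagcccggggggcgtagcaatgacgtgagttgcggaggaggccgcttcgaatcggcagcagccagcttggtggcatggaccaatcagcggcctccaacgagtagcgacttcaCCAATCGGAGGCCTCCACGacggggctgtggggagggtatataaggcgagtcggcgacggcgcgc
Hsp90b1, chr10:86705445-86705694, minus strand: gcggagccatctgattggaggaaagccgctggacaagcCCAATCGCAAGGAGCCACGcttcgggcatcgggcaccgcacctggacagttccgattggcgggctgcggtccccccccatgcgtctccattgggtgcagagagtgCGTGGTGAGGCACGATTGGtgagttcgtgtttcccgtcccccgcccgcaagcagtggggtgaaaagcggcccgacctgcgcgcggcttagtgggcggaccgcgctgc
Herpud1, chr8:94386179-94386428, plus strand: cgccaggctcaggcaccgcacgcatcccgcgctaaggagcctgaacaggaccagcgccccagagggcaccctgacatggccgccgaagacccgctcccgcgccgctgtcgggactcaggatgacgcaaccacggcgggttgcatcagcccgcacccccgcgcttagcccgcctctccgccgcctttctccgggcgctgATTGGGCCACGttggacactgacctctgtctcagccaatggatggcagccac
The Hspa5 match lay at bases -65 to -47 from the start site, and the Herpud1 match at -52 to -42. Hsp90b1 had 1 ERSE on its own strand at -212 to -194 and a second on the opposite strand at -107 to -89. A match of letters is a description and does not show that a factor binds there.

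None of the 9 measured members passed the test between knockout and control (limma with Benjamini-Hochberg adjustment over all 22180 genes, threshold 0.05), where 0.343% of all genes did. At an unadjusted p under 0.05 there were 3 members, Herpud1 and Dnajb9 with lower values in knockout and Sdf2l1 with a higher one. Over all genes 12.1% reached that level, 6.25% with lower and 5.82% with higher values. In 0 of 9 members did the 5 knockout arrays lie apart from all 5 controls, against 2.77% of all genes. Values were higher for 4 members and lower for 5, and the median difference was -0.01, beside -3.54e-04 over all genes.

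**Figure D1:**
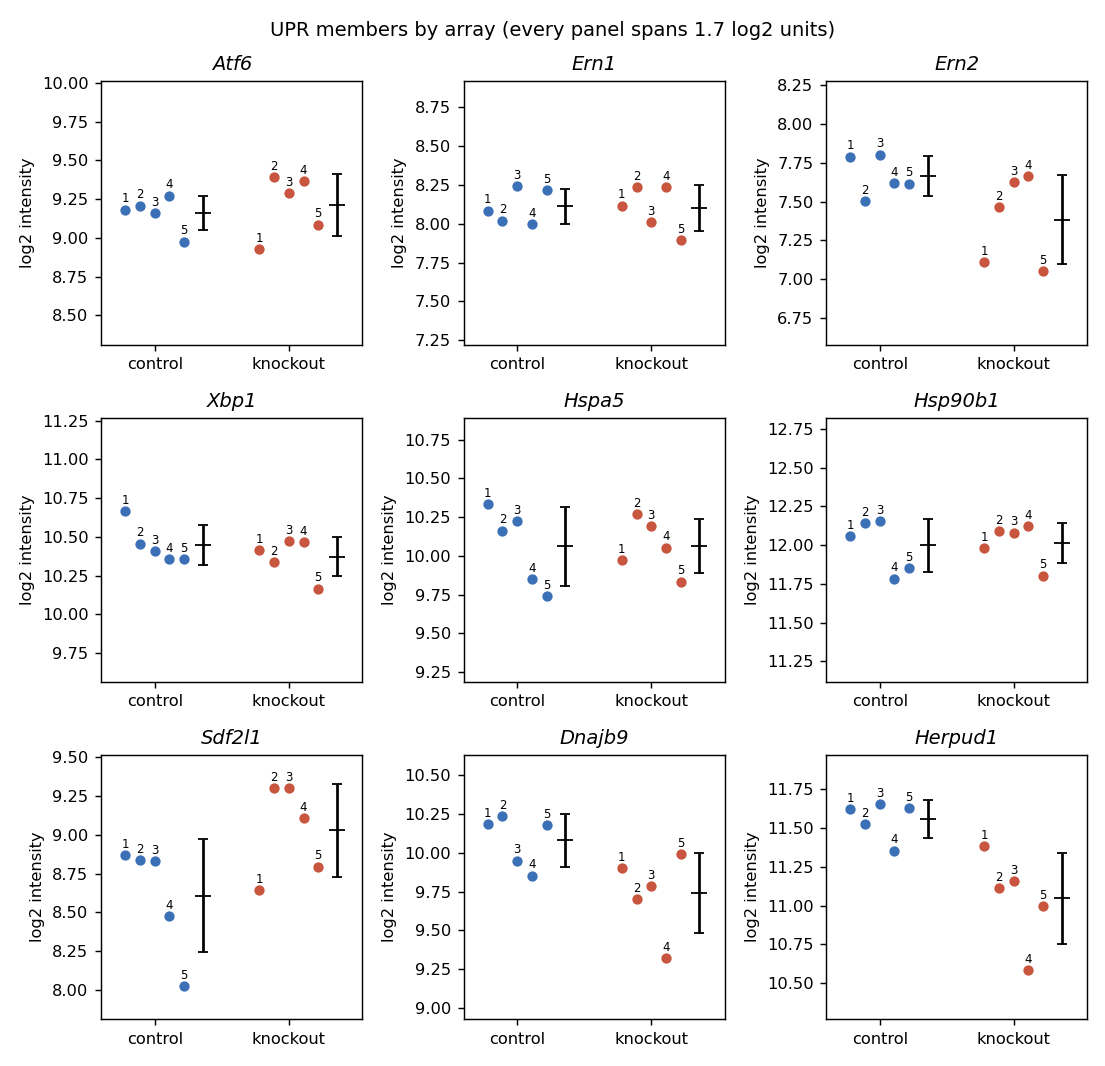
Log2 intensity (vertical axis) of the 9 measured members in each array, control in blue and knockout in red, with replicate numbers over the points. The bar beside each group is the mean with its SD (n = 5), and all panels have the same height in log2 units. Knockout and control overlap in every panel, least in that of Herpud1, where knockout 1 at 11.38 and control 4 at 11.35 meet.

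Among the sensors, Atf6, the gene of the sensor cut in the Golgi, had log2 intensities of 8.93, 9.39, 9.29, 9.37 and 9.09 in knockouts 1 to 5. The controls stood at 9.18, 9.21, 9.16, 9.27 and 8.98. The knockouts spread on both sides of the controls. The difference was 0.05 (SE 0.11, 95% interval -0.18 to 0.28, limma adjusted p = 0.892).

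Ern1, which encodes IRE1 alpha, was at 8.12, 8.24, 8.01, 8.24 and 7.90 in the knockouts. In the controls it was at 8.09, 8.02, 8.24, 7.997 and 8.21. The groups covered nearly the same range, and knockout 5 was the lowest of the 10 arrays. The difference was -0.01 (SE 0.09, 95% interval -0.22 to 0.19, limma adjusted p = 0.978), which bounds the knockout level between 86.2% and 114% of control.

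Ern2, which encodes IRE1 beta, was at 7.11, 7.47, 7.63, 7.66 and 7.05 in knockouts 1 to 5. The controls were at 7.79, 7.504, 7.80, 7.62 and 7.62. Knockouts 1, 2 and 5 lay below every control, knockout 2 only just, and knockouts 3 and 4 lay among the controls. Its difference was -0.28 (SE 0.13, 95% interval -0.57 to 0.00208, limma adjusted p = 0.414). Goblet marker values were lower in knockout for 8 of 9. Of the 9, 0 passed and 6 had an unadjusted p under 0.05 (limma), against 12.1% of all genes. Knockouts 1 and 5 were the lowest arrays of the goblet mean, at -0.26 and -0.27. Control 5 and knockout 4 were also low in it, at -0.21 and -0.16, with Ern2 at 7.62 and 7.66. With the goblet mean as a covariate, the Ern2 difference was -0.12 (SE 0.15, limma adjusted p = 0.761). It was -0.34 (SE 0.18, adjusted p = 0.727) with the mean of the distal intestine genes, in a fit that called 3 genes in all. With the Paneth mean, chosen after seeing the data, it was -0.31 (SE 0.12, adjusted p = 0.299). The goblet mean itself differed by -0.23 between knockout and control, so its fit cannot fully separate it from the group. Its part in the Ern2 difference was not tested. In a piece of whole tissue, fewer cells of a type and less RNA per cell cannot be told apart.

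Xbp1, the transcription factor that IRE1 activates by splicing, was at 10.41, 10.34, 10.48, 10.47 and 10.17 in the knockouts. The controls were at 10.66, 10.46, 10.41, 10.36 and 10.36. Control 1 was the highest and knockout 5 the lowest array, and the others lay close together. The difference was -0.08 (SE 0.09, 95% interval -0.28 to 0.12, limma adjusted p = 0.805), so that the knockout level was bounded between 82.5% and 109% of control. Both splice forms count toward this value.

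Among the chaperones of the ER lumen, Hspa5 encodes BiP, the ER member of the HSP70 family, which holds the sensors inactive and whose transcript is a standard readout of ER stress. It was at 9.97, 10.27, 10.19, 10.05 and 9.83 in knockouts 1 to 5. The controls were at 10.34, 10.16, 10.22, 9.85 and 9.74. The controls enclosed the knockouts, with control 1 highest and control 5 lowest. The difference was 0.00144 (SE 0.13, 95% interval -0.28 to 0.28, limma adjusted p = 0.998), or 100.1% of control with bounds of 82.4% and 122%.

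Hsp90b1, which encodes GRP94, the HSP90 of the ER, was at 11.98, 12.09, 12.08, 12.12 and 11.80 in the knockouts. In the controls it was at 12.06, 12.14, 12.15, 11.78 and 11.85. Knockout 5 and controls 4 and 5 were the low arrays, and the ranges of the groups nearly coincided. The difference was 0.02 (SE 0.10, 95% interval -0.20 to 0.24, limma adjusted p = 0.970).

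Sdf2l1, a partner of the BiP chaperone complex, was at 8.64, 9.30, 9.30, 9.11 and 8.79 in knockouts 1 to 5. The controls were at 8.87, 8.84, 8.83, 8.47 and 8.02. Knockouts 2, 3 and 4 lay above every control, and knockouts 1 and 5 lay among them. The value was 0.42 higher in knockout (SE 0.18, 95% interval 0.03 to 0.82), which did not pass (limma adjusted p = 0.380). The array with the lowest Sdf2l1, control 5, also had the lowest mean of the Paneth markers. With the Paneth mean as a covariate, an alternative chosen after seeing the data, the difference was 0.36 (SE 0.10, adjusted p = 0.136). With the goblet mean as a covariate it was 0.82 (SE 0.12, adjusted p = 0.0297), past the threshold in a fit that called 0.464% of all genes. With the mean of the distal intestine genes it was 0.19 (SE 0.24, adjusted p = 0.896), in a fit that called 3 genes in all, against 76 without a covariate.

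Dnajb9 encodes ERdj4, a J-domain protein that directs BiP to IRE1 and to misfolded proteins. It was at 9.90, 9.70, 9.79, 9.32 and 9.99 in knockouts 1 to 5. The controls were at 10.19, 10.24, 9.95, 9.85 and 10.18. Knockout 4 stood lowest, and knockouts 1 and 5 overlapped the controls. The knockout value was 1.27-fold lower (log2 difference -0.34, SE 0.13, 95% interval -0.62 to -0.06), which did not pass (limma adjusted p = 0.318).

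Herpud1, a membrane protein of the ER that helps bring misfolded proteins to the degradation machinery, had the smallest p of the 9. It was at 11.38, 11.11, 11.16, 10.58 and 11.00 in knockouts 1 to 5. The controls were at 11.62, 11.53, 11.65, 11.35 and 11.63. Knockouts 2 to 5 lay below every control, and knockout 1 was just above control 4. The knockout value was 1.42-fold lower (log2 difference -0.51, SE 0.13, 95% interval -0.80 to -0.22), and it did not pass (limma adjusted p = 0.132). Without knockout 1 the groups did not overlap (as for 3.22% of all genes, in that direction), the difference was -0.59 (SE 0.13) and it passed (adjusted p = 0.0490), in a comparison where 1.21% of all genes were called. Without control 4 the groups did not overlap either (as for 2.23% of all genes, in that direction), and the difference of -0.56 (SE 0.14) did not pass (adjusted p = 0.170). Only knockout 1 and control 4 crossed, so leaving out either had to separate the groups. The shares over all genes are for that 1 array left out. Knockout 1 was also the knockout with the lowest mean of distal intestine genes. With that mean as a covariate the Herpud1 difference was -0.32 (SE 0.17, adjusted p = 0.722). That fit called 3 of all 22180 genes, against 76 without a covariate. The mean was itself higher in knockouts 2 to 5 than in every control, so the fit cannot fully separate it from the group. With the goblet mean as a covariate the Herpud1 difference was -0.52 (SE 0.17, limma adjusted p = 0.175). With the Paneth mean, chosen after seeing the data, it was -0.49 (SE 0.13, limma adjusted p = 0.110). The part of these lists in the Herpud1 difference was not tested.

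**Figure D2:**
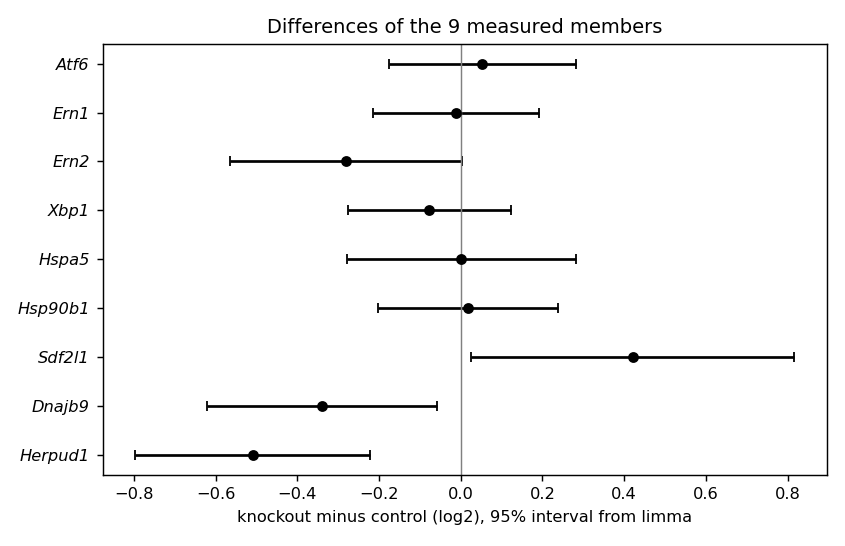
Difference between knockout and control (horizontal axis, log2) for the 9 measured members, with the 95% interval from limma as a line. The intervals of Herpud1 (-0.80 to -0.22) and Dnajb9 (-0.62 to -0.06) lie below 0 and that of Sdf2l1 (0.03 to 0.82) above it, before any adjustment for the number of genes.

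The 3 members with an element in the promoter can be set side by side. Hspa5 and Hsp90b1, with ERSE, differed by 0.00144 and 0.02, and Herpud1, with ERSE-II, by -0.51. Over all genes tested whose promoter held ERSE, values were higher for 14 of 29 and lower for 15, and the median was -0.00303. Of these 29, 0 passed and 4 had an unadjusted p under 0.05 (limma). For ERSE-II there were 9 genes, 4 higher and 5 lower, with a median of -0.05, 0 past the test and 3 at an unadjusted p under 0.05. All genes tested had 12.1% at that level, beside 13.8% of those with ERSE and 33.3% of the 9 with ERSE-II, Herpud1 being 1 of the 3.

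Within the groups, some members varied together from array to array. After each group's mean was subtracted, Pearson's r was computed for all 36 pairs over the 10 arrays, with a two-sided exact permutation test over 14400 orders within the groups and Benjamini-Hochberg adjustment over the pairs. It was above 0 in 25 pairs and ran from -0.67 to 0.91. Hspa5 and Sdf2l1 had r = 0.91 (exact permutation p = 0.00111, adjusted p = 0.0400), and this was the only pair below an adjusted p of 0.05. Spearman's rho of that pair was 0.85 (exact permutation p = 0.00250, adjusted p = 0.0900). Without control 5 and knockout 5, the arrays farthest from the median of Hspa5, r was 0.83 (exact permutation p = 0.00694, adjusted p = 0.250). Fewer arrays allow so few orders that no single pair could pass after adjustment. The adjusted value therefore cannot show that the relation ended.

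Hsp90b1 varied with both of these chaperones, at r = 0.84 (rho = 0.64) with Hspa5 and r = 0.76 (rho = 0.54) with Sdf2l1. Neither passed (exact permutation p = 0.0117 and 0.0176, adjusted p = 0.159 for both; for rho, p = 0.0958 and 0.113). Without control 5 and knockout 5, its r with Hspa5 was 0.76 (exact permutation p = 0.0972, adjusted p = 0.389). For Sdf2l1 the arrays left out were control 4 and knockout 5, the farthest from the median of Hsp90b1. There r was 0.88 (exact permutation p = 0.0625, adjusted p = 0.320). Controls 4 and 5 and knockout 5 were the low arrays of Hspa5 and Hsp90b1. Herpud1 and Dnajb9 had r = 0.71 (exact permutation p = 0.0670, adjusted p = 0.228) and rho = 0.33 (exact permutation p = 0.419, adjusted p = 0.617). That relation rested on control 4 and knockout 4, and r was -0.22 without them. Herpud1 had r = 0.17 with Hspa5 (rho = 0.21, exact permutation p = 0.627 and 0.557). The Paneth mean was likewise lowest in control 5, and that of plasma cell markers (8 of 8 measured) was -0.61 there against -0.12 to 0.35 in the other arrays. In control 4 the mean of smooth muscle markers (8 of 8 measured) was 1.10, against -0.39 to 0.17 in the other arrays. Their part in these relations was not tested.

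**Figure D3:**
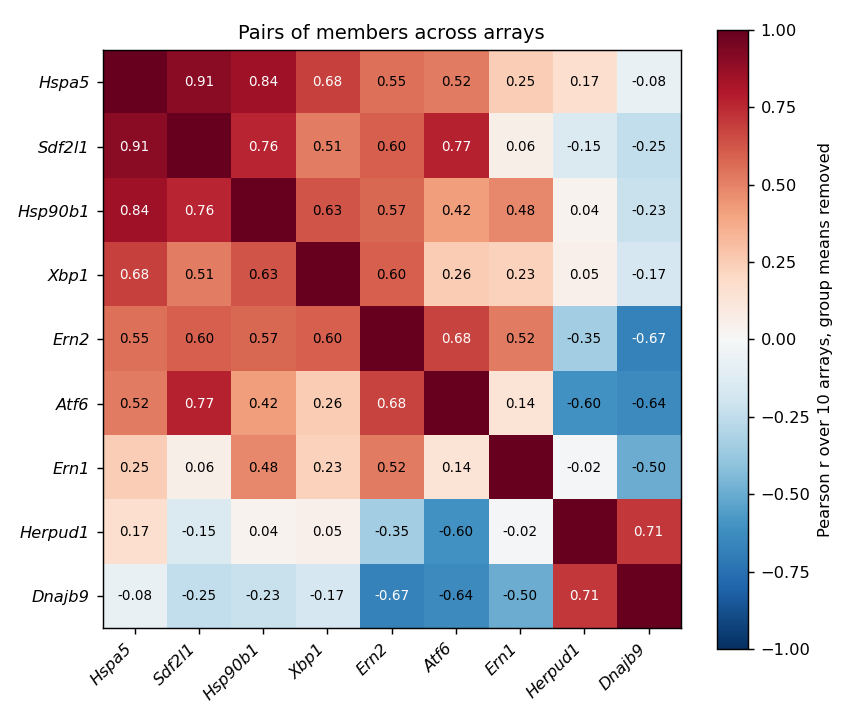
Pearson's r for each pair of the 9 measured members over 10 arrays, with group means removed (red above 0, blue below 0). Hspa5, Sdf2l1 and Hsp90b1 form the block of high values from 0.76 to 0.91, and Herpud1 with Dnajb9 the pair at 0.71.

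The gene whose pattern over the 10 arrays was most like that of Hspa5 was Manf, an ER stress-induced secreted protein, with r = 0.97 after removal of the group means. It was followed by Gtf2f2, Dtd1, Cdc73 and Mlph, with r from 0.93 to 0.91. These were ranked among 9772 genes with a mean log2 intensity of at least 6, of which 1.16% had r of at least 0.8 with Hspa5. Like Hspa5, Manf had nearly equal means, 7.29 in knockout and 7.27 in control. For Xbp1 the nearest were Slc1a4, Anapc10, Smpd3, Nfya and Snx12, with r from 0.91 to 0.89, and 0.512% of genes reached 0.8. These values describe 10 arrays and were selected from many genes.

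Outside the members, 117 genes of the same pathway were listed in 7 groups, and 110 were measured. Of these, 1 rose (Chac1) and 0 fell, a share of 0.909% beside 0.343% of all genes tested. Higher values were seen in 63 and lower ones in 47, with a median of 0.02. At an unadjusted p under 0.05 there were 21 (19.1%, against 12.1% of all genes), and in 7 (6.36%, against 2.77%) the groups did not overlap. Whether these shares differ from those of all genes was not tested.

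In the PERK branch, which slows translation and favours the factor ATF4, 1 of 8 measured genes rose and 7 did not pass. Chac1, a glutathione-degrading enzyme and target of ATF4, rose 1.94-fold (log2 difference 0.96, SE 0.15, limma adjusted p = 0.0264), from 5.93 to 6.40 in controls to 6.72 to 7.61 in knockouts. Chac1 is known to answer amino acid shortage as well as ER stress. Eif2ak3, the gene of PERK itself, was at 7.94 to 8.37 in knockouts and 8.45 to 8.89 in controls, without overlap. Its difference of -0.52 (SE 0.12) did not pass (limma adjusted p = 0.0853). It passed with array weights (adjusted p = 0.0476) and at the alternative threshold of 0.1. Atf4 and its target Ddit3, the gene of CHOP, had differences of 0.17 (SE 0.12) and 0.15 (SE 0.10). The Chac1 call was kept when knockout 1, knockout 5 or control 3 was left out. It ended when any 1 of knockouts 2, 3 and 4 or controls 1, 2, 4 and 5 was left out, though the difference stayed at 0.84 to 0.996. It also ended with the distal intestine mean (0.74, adjusted p = 0.411) or the goblet mean (0.92, adjusted p = 0.0696) as a covariate, with the replicate block (0.96, adjusted p = 0.0582), and in a test of all probe sets. The fit with the distal intestine mean called 3 genes in all, against 76 without a covariate.

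Among 11 relatives and processing factors of ATF6 and the CREB3 family, 0 passed and 3 had an unadjusted p under 0.05 (limma). Mbtps2, the site-2 protease that releases ATF6 from the membrane, had a difference of 0.41 (SE 0.13). The values were -0.46 (SE 0.18) for Creb3l2, an ER-bound factor of secretory cells, 0.22 (SE 0.10) for Atf6b and -0.19 (SE 0.10) for Creb3. Among 7 partners of IRE1, 0 passed, and Bloc1s1, whose transcript IRE1 can cut, had the only unadjusted p under 0.05, at -0.22 (SE 0.10). The next were the kinase Mapk9 at -0.31 (SE 0.15), Rtcb, the ligase that joins the Xbp1 exons, at -0.12 (SE 0.09), and Mapk8 at -0.11 (SE 0.11).

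The other folding helpers of the ER had higher values in 15 of 21 cases, with a median of 0.08, while 0 passed and 3 had an unadjusted p under 0.05 (limma). These were Fkbp11, a prolyl isomerase (0.66, SE 0.21), Dnajc10, a disulfide reductase that works with BiP (0.45, SE 0.16), and Canx, the lectin chaperone calnexin (0.24, SE 0.11). Ppic was at -0.20 (SE 0.12). Of 17 disulfide isomerases and genes of oxidative folding, 0 passed and 4 had an unadjusted p under 0.05. Agr3, an isomerase of the family that serves mucus secretion, was at -0.71 (SE 0.17, adjusted p = 0.0994), with knockouts at 4.19 to 4.60 and controls at 4.60 to 5.59, so that the groups touched at the rounded value without overlapping. It passed without knockout 1 and control 5 together (-0.88, adjusted p = 0.0373). Agr3 was dim: its mean over the arrays was 4.71, within the lowest 30% of all genes (under 4.92). Agr2, at a mean of 11.01 in controls and 11.28 in knockouts, had the opposite sign, at 0.27 (SE 0.17, limma adjusted p = 0.588). The oxidase gene Ero1a stood at 0.40 (SE 0.11) without overlap, its relative Ero1b at -0.34 (SE 0.14), and the sulfhydryl oxidase gene Qsox1 at 0.56 (SE 0.21).

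Herpud1 belongs by function to ER-associated degradation, whose other measured genes had smaller differences. Of 21 measured, 0 passed, 2 had an unadjusted p under 0.05 (limma), and their differences ran from -0.19 to 0.26 around a median of 0.02. Ngly1, which strips glycans from degraded proteins, was at 0.26 (SE 0.09) without overlap of the groups, and Edem2 was at 0.24 (SE 0.11). Edem1, a lectin for proteins bound for degradation, was at -0.18 (SE 0.09), and Herpud2, the relative of Herpud1, at -0.19 (SE 0.09). Of 25 genes of entry into and exit from the ER, 0 passed and 6 had an unadjusted p under 0.05. Sec62 (-0.28, SE 0.07) and Sec61g (0.29, SE 0.08), both of the translocation channel, had values of opposite sign, each without overlap of the groups. Sec24d, of the coat of export vesicles, was at -0.28 (SE 0.10). Kdelr3, a receptor that returns chaperones to the ER, was at -1.05 (SE 0.31, adjusted p = 0.196), with knockout 1 at 8.71 and knockouts 2 to 5 at 6.997 to 7.34, and controls at 8.04 to 9.30. Without knockout 1 it passed, at -1.36 (SE 0.21, adjusted p = 0.0128). With the distal intestine mean as a covariate it was -0.24 (SE 0.27, adjusted p = 0.885), in the fit that called 3 genes in all. With the goblet mean as a covariate it was -1.53 (SE 0.32, limma adjusted p = 0.0687).

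**Figure D4:**
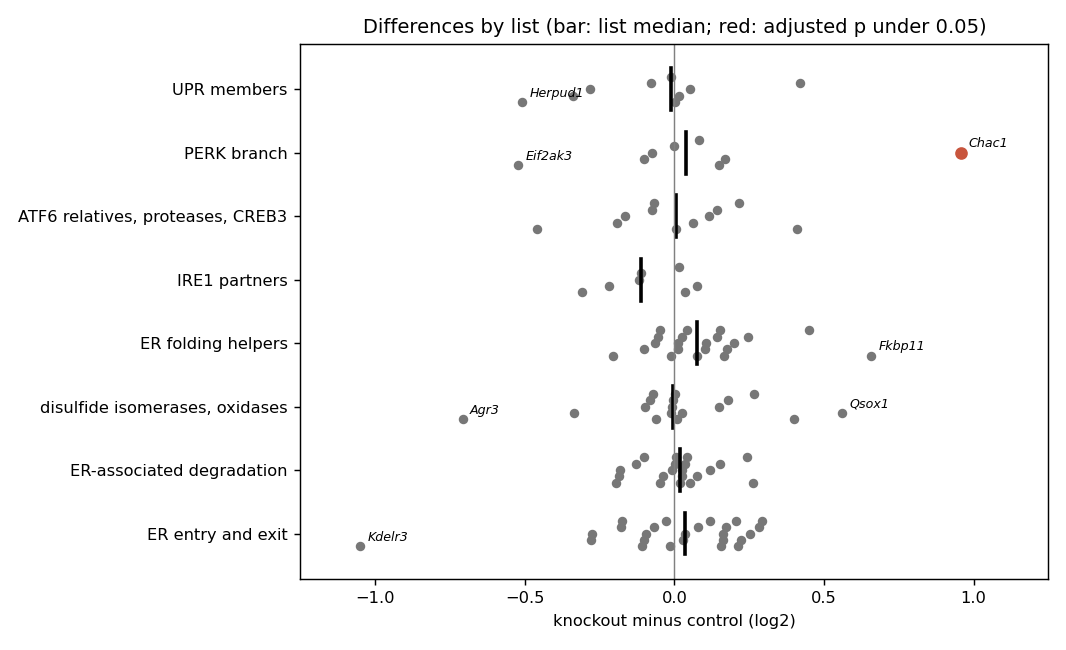
Difference between knockout and control (horizontal axis, log2) for each measured gene of the members and of the 7 other lists, with the list median as a black bar. Chac1 (0.96) is the only gene past the test, in red, and list medians lie between -0.11 for the IRE1 partners and 0.08 for the folding helpers.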

How the data were processed

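The deposited values are linear intensities that the authors obtained by RMA in Affymetrix Expression Console (version 1.4.1.46), per the submitters' processing notes. No source used here gives further settings. RMA gives arrays a shared distribution, so a shift common to most transcripts would not show. Array medians were 45.8 to 48.1, correlations between arrays 0.972 to 0.993, and no 2 arrays were identical. Detection calls were not used here. The number of arrays limits the precision. The planned log2 scale was reached by taking log2 of the values.

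Samples were grouped by title. Of 41345 probe sets, 23521 carried 1 symbol in GEO's platform annotation, 1814 several and 16010 none. The brightest probe set per gene by mean was used, giving 22180 genes, of which 21994 matched RefSeq by Entrez identifier. Limma 3.58.1 in R 4.3.3 was run on log2 values with group as the only term (lmFit, eBayes, Benjamini-Hochberg, threshold 0.05), after tests on simulated data. The members and lists were chosen with earlier results of these data known. List means are over log2 values minus each gene's mean over the 10 arrays. The genes named are all members, the 4 genes with the smallest p in each pathway list and the 5 genes most like Hspa5 and Xbp1, without 584 numbered models and small RNAs. Agr2, Fabp6 and Cubn were added after their values were seen. Promoter elements were searched by their textbook definitions, which no deposited file gives.

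Samples were not treated as paired: same-numbered arrays deviated together with r above 0.1 in 1 of 5 pairs. This does not exclude a pairing by number, and a replicate block was run among the alternatives. Alternatives were median shift, quantile normalization, no dim genes (lowest 30%), other probe set rules, array weights, eBayes with trend and robust options, a replicate block, omission of arrays, a threshold of 0.1 and covariates.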

Additional observations from a re-analysis of the deposited data

Results flagged for a closer look

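A total of 90 groups of 5 arrays (the members, the other named genes and the marker lists, in each group) were examined for an array far from the other 4, and 6 had one by Dixon's test, which passes about 5% of groups by chance. None of the 9 members was among them. Kdelr3 was at 8.71 in knockout 1, with the other knockouts at 6.997 to 7.34. The Paneth list mean was -2.62 in control 5, with the other controls at 0.29 to 0.73. The plasma cell list mean was 0.33 in knockout 5, with the other knockouts at -0.06 to 0.02. The smooth muscle list mean was 1.10 in control 4, with the other controls at -0.39 to -0.07. For the distal intestine list, knockout 1 had -1.09, where knockouts 2 to 5 had 0.71 to 1.38. Control 2 had -0.0917 in that list, where the remaining controls had -0.82 to -0.67.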

How the results depend on the processing

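Under 23 alternatives (16 for the overlap of the groups, which weights, covariates and thresholds cannot change), the count of members called was 0 in 21, and 1 without knockout 1 (Herpud1) and 1 with the goblet covariate (Sdf2l1). Herpud1, Dnajb9, Ern2 and Sdf2l1 kept the sign of their difference under all 23, with ranges of -0.59 to -0.32, -0.41 to -0.24, -0.35 to -0.12 and 0.19 to 0.82. The differences of the others changed sign under some alternatives. Hspa5 was at -0.00148 with quantile normalization, -0.0475 with the ileum covariate, -0.0289 with the Paneth covariate and -0.0561 without knockout 1 and control 5. In that last setting Hsp90b1 was at -0.0112 and Ern1 at 0.00956. Ern1 was at 0.0156 with array weights and 0.0348 with the ileum covariate, Atf6 at -0.11 with the ileum covariate and Xbp1 at 0.0105 with the goblet covariate. The largest differences of Hspa5, Atf6 and Hsp90b1 came with the goblet covariate, at 0.24 (SE 0.12), 0.21 (SE 0.11) and 0.12 (SE 0.12). None of these passed (limma adjusted p = 0.359, 0.402 and 0.691). With 1 array left out, Hspa5 ran from -0.0791 to 0.0699, Hsp90b1 from -0.0367 to 0.0700 and Ern1 from -0.0462 to 0.0391, members called from 0 to 1, and members without overlap from 0 to 1 (1 also without knockout 1 and control 5). With 1 array left out, counts over all genes (76 with all arrays) ran from 11 to 268 and over the pathway lists (1) from 0 to 2. All genes called were 39 with all probe sets, 142 with array weights, 27 with the replicate block, 186 without knockout 1 and control 5, 261 at a threshold of 0.1, 3 with the ileum covariate and 209 with the Paneth covariate. Pathway genes called were 0 with all probe sets, the replicate block, the ileum covariate or the goblet covariate, 2 with array weights, and 3 without knockout 1 and control 5 or at a threshold of 0.1. The replicate block changed no call of a member. Pairs of members below an adjusted p of 0.05 were 1 with Pearson's r and 0 with Spearman's rho or without the 2 farthest arrays. Without those arrays too few orders remained for a single pair to pass, so that count cannot show that a relation ended. The causes of these changes were not tested. Genes near background were tested without detection calls, which limits what dim probe sets can show.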

Other observations

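Among genes other than the members whose promoters held one of the searched elements, Nucb1, a calcium-binding protein of the Golgi with ERSE-II, had a difference of 0.30 (SE 0.10, limma adjusted p = 0.251), opposite in sign to Herpud1. Canx, with ERSE, stood at 0.24 (SE 0.11, adjusted p = 0.391) and Ero1b, also with ERSE, at -0.34 (SE 0.14, adjusted p = 0.372). These genes were picked after their values were seen. Of 147 tested genes with TGACGTGG in the promoter, 0 passed the test, 25 had an unadjusted p under 0.05 (17.0%, limma) and 8 showed no overlap of the groups (5.44%). The shares over all genes were 0.343%, 12.1% and 2.77%, and whether they differ was not tested. Among the 147, values were higher for 68 and lower for 79, with a median of -0.02. Of the 8 without overlap, Lrrc59 had higher values in knockout and the others lower ones. Over all genes, 267 were higher and 347 lower without overlap. Kdelr3 (-1.05) and Sec24d (-0.28) hold this element, as does Fabp6 (3.89).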
